A study of Mus musculus with 110 samples.

Results

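Described here are 10 genes of the 24056 in the count table of a mouse study: Tceal6, Nap1l3, Gab3, Atp2b3, Dach1, Dnajc12, Impdh1, Mzt2, Brdt and Eid2b. They had been picked from these data because each was lower with a zinc-finger protein (ZFP) repressor than with its control in mice of both genotypes, in the ribosome pulldowns of the n_ZFP_a_Rpl set and of the n_ZFP_n_Rpl set. The falls in those pulldowns are therefore a description, with no test. What was tested is the behaviour of the same genes in libraries or contrasts the choice did not use.

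The study pulled down HA-tagged ribosomes by the RiboTag method from astrocytes or from neurons and sequenced the bound RNA (IP). RNA from before the pulldown (Input) was sequenced for 3 of the 4 sets. The labels give 1 strain for every sample, R6/2 (Jax #006494), the transgenic line that carries a mutant human huntingtin fragment and models Huntington's disease. The AAVs were made for 1 cell type, astrocytes or neurons, and carried either the ZFP or Delta, its control.

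The 4 conditions were NCAR mice with Delta (ND), NCAR mice with ZFP (NZ), R6/2 mice with Delta (RD) and R6/2 mice with ZFP (RZ), where NCAR, the genotype compared with R6/2, is not spelled out. Astrocytes were the labelled cell type of the MG and n_ZFP_a_Rpl sets, and neurons that of the hSyn and n_ZFP_n_Rpl sets. The MG IP had 4 libraries per condition, and the hSyn IP and Input had 5 ND, 4 NZ, 3 RD and 4 RZ libraries each. The n_ZFP_a_Rpl IP and Input had 4 ND, 4 NZ, 3 RD and 4 RZ libraries each, and the n_ZFP_n_Rpl IP and Input had 4 of each condition. The labels do not say whether replicates were separate animals, so p-values measure only the spread between these libraries. They do not give the tissue, the age, the promoters of the AAVs, which cells carried the ZFP in each set, or the sequence the ZFP binds.

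A ZFP repressor joins a chain of zinc fingers, each of which reads a few bases of DNA, to a domain that silences the gene next to the bound site. Mutant huntingtin differs from the normal gene by a longer CAG repeat, and ZFPs that bind this repeat have been described. In RiboTag mice a ribosomal protein carries an HA tag in 1 cell type, so that an IP is enriched for RNA under translation in those cells. Both IP and Input measure RNA from many cells, and fewer cells of a type and less RNA per cell cannot be told apart.

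Between 34763967 and 72623472 reads were assigned to genes per IP library and between 26369041 and 44176925 per Input library. The pulled-down cell type was checked by marker lists in ND: in the n_ZFP_a_Rpl set 10 of 10 astrocyte markers were higher in IP than in Input (median log2 difference 1.83), and 7 of 8 neuron markers were higher there too (median 0.30). Interneuron markers were higher in that IP as well, 5 of 5 with a median of 1.54. Of 9 tested projection neuron markers 1 was higher and 4 were lower there (median -0.25). This IP thus held neuronal RNA beside astrocyte RNA. In the n_ZFP_n_Rpl set 8 of 8 neuron markers were higher in IP (median 0.73) and 9 of 10 astrocyte markers lower. In the hSyn set 8 of 8 neuron markers were higher in IP and 6 of 10 astrocyte markers lower. The MG IP has no Input here, and 9 of 10 astrocyte markers were lower in the hSyn IP than in the MG IP. The general neuron markers did not set these 2 IPs apart, with 3 of 8 higher and 3 lower in the hSyn IP (median 0.004). Of the projection neuron markers 9 of 9 were higher in the hSyn IP, and of the interneuron markers 1 of 5 was higher and 4 lower. All 110 libraries held Y-linked transcripts (Ddx3y at 75.5 to 188 CPM) and almost no Xist (at most 0.557 CPM). Mouse Htt in the n_ZFP_a_Rpl IP with ZFP stood at 105% of the Delta level in NCAR and 99.4% in R6/2 mice. These values hold for that IP only, and Htt in the other sets and fractions is not given here.

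All levels are in CPM, read counts divided by the library total and scaled within each set and fraction. Reads were not divided by gene length, so levels are compared between groups of libraries and not between genes. Differences are log2 values ± standard error from edgeR's quasi-likelihood fit, and a gene is said to rise or fall where the Benjamini-Hochberg adjusted p over all genes tested was under 0.05.

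Of 14863 genes tested in both n_ZFP IPs, 39 were lower past this threshold in all 4 contrasts of the choice, and 7 were higher in all 4. The share of tested genes lower past the threshold was 0.872% and 14.7% in the n_ZFP_a_Rpl IP (NZ against ND, and RZ against RD) and 4.50% and 7.95% in the n_ZFP_n_Rpl IP. Ranked by the smallest of the 4 falls, the 10 genes described here hold ranks 1 to 10. Brdt stands just inside, with a smallest fall of -1.42 on the log2 scale, and Rassf3 (-1.23), Noa1 (-1.18) and Rplp1 (-1.18) stand just outside. The choice used no positions, and 4 of the 10 (Tceal6, Nap1l3, Gab3 and Atp2b3) lie on the X chromosome. The X chromosome holds 3.58% of the tested genes with a known position and 2 of the 29 other genes lower in all 4 contrasts.

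In the n_ZFP_a_Rpl IP the genes kept 3.24% to 34.7% of their ND level in NZ (median 16.8%) and 4.26% to 37.3% of their RD level in RZ (median 17.8%). They kept 18.5% to 36.3% (median 26.4%) in NZ and 16.2% to 35.5% (median 20.4%) in RZ of the n_ZFP_n_Rpl IP. Every library with ZFP was below every library with Delta for 10 of 10 genes in all 4 of these contrasts, as the choice made likely. Over all tested genes, groups without overlap and lower with ZFP made up 4.55%, 18.7%, 6.91% and 12.6% in the same order.

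**Figure D1:**
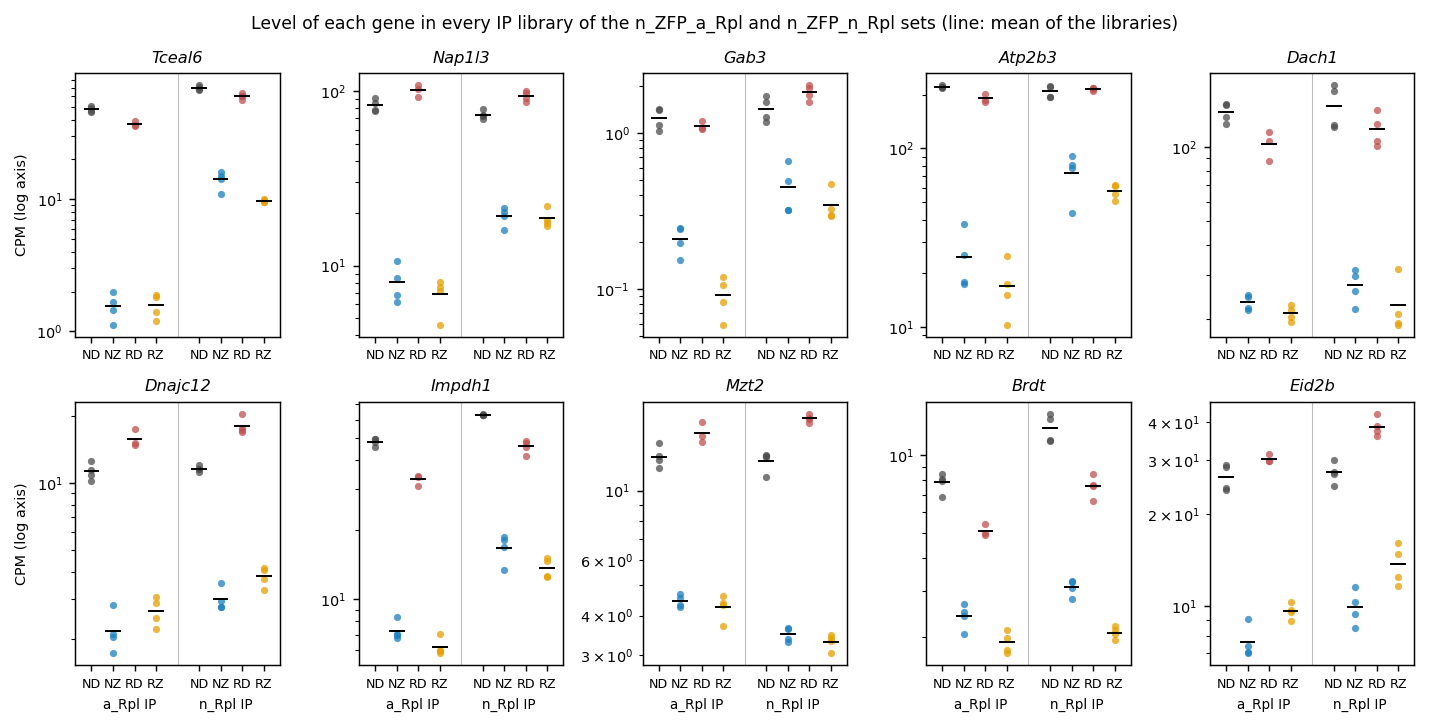
Level in CPM (log axis) of each of the 10 genes in every IP library of the n_ZFP_a_Rpl set (left of each panel) and the n_ZFP_n_Rpl set (right), by condition, with a line at the mean of the 3 or 4 libraries. In every panel the NZ and RZ points lie below all ND and RD points, and for Tceal6 in the n_ZFP_a_Rpl IP they lie between 1.12 and 1.99 CPM against 35.9 to 50.8 CPM with Delta.

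Sequence around the start of transcription was read for the genes in the RefSeq promoter table (GRCm38.p6), which covers 250 bases before to 50 after each start. It held 5 of the 10 genes, Impdh1 with 2 starts. Each window was searched for the longest uninterrupted run of CAG on either strand (CAG or CTG). The 4 windows with a run of 2 units or more are shown, 30 bases each, 5′ to 3′ on the gene's strand, with the run in capitals.
Tceal6 (chrX:135210638-135210667, minus strand): cccccgcgccagctagtcCTGCTGCTGCTG
Impdh1, the inner start (chr6:29212248-29212277, minus strand): cagcgtggcctcggtgcgcgtCAGCAGCAG
Nap1l3 (chrX:122397336-122397365, minus strand): ctgcgtcactggactgCAGCAGgtctcggc
Brdt (chr5:107331126-107331155, plus strand): accctggccaatCAGCAGgctgctcgcggg

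Tceal6 had 4 CTG units at positions 39 to 50 after the start, and Impdh1 3 CAG units at positions 42 to 50. Both runs end at the edge of the window, so their full length was not read. Nap1l3 had 2 units at positions 37 to 42 after the start and Brdt 2 units at 56 to 51 bases before it. The longest runs of Dach1 and of the other Impdh1 window were 1 unit. Of all 32851 windows in the table, 0.368% held a run of 4 units or more, 1.82% one of 3 or more and 31.6% one of 2 or more. For the genes tested in both n_ZFP IPs the shares with 4 or more and 3 or more were 0.339% and 1.96%. Among the 35 windows of the other genes lower in all 4 contrasts, 3 (8.57%) held a run of 3 or more units. A run of 4 or more was held by 1 of the 35, that of Rsl24d1 with 17 units. A run in a window is a description of its letters and not a binding site.

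The first group of genes acts on transcription or chromatin. Tceal6 belongs to the transcription elongation factor A-like family and lies on chrX:135208686-135210687 (GRCm38, the build mm10 used by the authors). In the n_ZFP_a_Rpl IP it stood at 45.5, 50.8, 46.4 and 49.3 CPM in the ND libraries and at 1.99, 1.46, 1.66 and 1.12 CPM in NZ. The RD libraries held 38.8, 36.3 and 35.9 CPM and the RZ libraries 1.41, 1.19, 1.83 and 1.88 CPM. The ZFP groups of both genotypes thus lay at the same level, and no library with ZFP came near one with Delta. The differences were -4.95 ± 0.14 and -4.55 ± 0.14, the deepest of the 10 in each genotype. In the n_ZFP_n_Rpl IP the values were 68.3, 67.6, 71.2 and 72.7 CPM in ND and 15.1, 14.3, 16.1 and 10.97 CPM in NZ, a difference of -2.31 ± 0.09. In R6/2 mice they were 60.2, 56.5, 60.6 and 64.2 CPM in RD and 9.60, 9.57, 9.94 and 9.99 CPM in RZ, a difference of -2.63 ± 0.09, with the 4 RZ libraries close together and below all NZ libraries. Copies close in sequence, such as Tceal3 and Tceal5, may share reads with Tceal6.

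Nap1l3, a nucleosome assembly protein 1-like gene on chrX:122394560-122397385, came from 78.1, 76.5, 85.96 and 91.8 CPM (ND) to 10.6, 6.82, 6.17 and 8.51 CPM (NZ) in the n_ZFP_a_Rpl IP. From RD to RZ it came from 103, 108 and 92.1 CPM to 7.55, 4.58, 7.16 and 8.06 CPM, so the genotype with the higher level under Delta had the lower mean under ZFP. The differences were -3.37 ± 0.17 and -3.88 ± 0.18. The n_ZFP_n_Rpl IP held 78.9, 72.3, 73.1 and 68.9 CPM in ND, 20.2, 21.5, 19.2 and 16.04 CPM in NZ, 91.8, 97.98, 100.4 and 86.4 CPM in RD and 18.4, 17.6, 22.02 and 16.8 CPM in RZ. Both ZFP groups again sat close together, at 22.0 CPM or below, with differences of -1.93 ± 0.09 and -2.33 ± 0.09.

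Dach1 encodes a dachshund-family transcription cofactor and spans chr14:97786846-98169765, the longest of the 10 genes. Its n_ZFP_a_Rpl IP levels were 149.7, 148, 133 and 124 CPM in ND and 24.6, 24.9, 21.7 and 22.1 CPM in NZ, and 115, 87.7 and 106 CPM in RD and 22.6, 21.7, 19.5 and 20.4 CPM in RZ. The differences were -2.57 ± 0.09 and -2.29 ± 0.09. The Delta libraries of the n_ZFP_n_Rpl IP varied more, with ND at 121, 122, 178 and 169 CPM and RD at 101, 106, 142 and 125 CPM, while NZ held 31.6, 21.9, 29.8 and 26.1 CPM and RZ 31.9, 18.9, 20.9 and 19.2 CPM. RZ replicate 1, at 31.9 CPM, stood above the other 3 RZ libraries and still far below every RD library. The differences there were -2.43 ± 0.19 and -2.38 ± 0.19, close to those in the n_ZFP_a_Rpl IP.

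Brdt, a bromodomain gene of the BET family known for its role in male germ cells, lies on chr5:107331116-107387061. In the n_ZFP_a_Rpl IP it went from 7.95, 6.91, 8.06 and 8.43 CPM (ND) to 2.66, 2.05, 2.48 and 2.40 CPM (NZ) and from 5.40, 4.997 and 4.91 CPM (RD) to 1.98, 1.72, 1.78 and 2.12 CPM (RZ). Those differences, -1.71 ± 0.10 and -1.42 ± 0.11, were smaller than in the n_ZFP_n_Rpl IP, where they were -2.04 ± 0.10 and -1.87 ± 0.11. The n_ZFP_n_Rpl levels were 13.7, 11.4, 14.4 and 11.3 CPM in ND, 3.07, 3.23, 3.28 and 2.78 CPM in NZ, 8.41, 7.56, 7.67 and 6.61 CPM in RD and 2.20, 2.11, 2.04 and 1.94 CPM in RZ. In the n_ZFP_n_Rpl IP none of the 4 groups overlapped, and in the n_ZFP_a_Rpl IP only NZ and RZ did. The gene overlaps an annotated long non-coding RNA gene, Gm17202, and the strand setting of the counting is not given in the sources used here.

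Eid2b, of the family of EP300-interacting inhibitors of differentiation, is a short gene on chr7:28277706-28280129. Its n_ZFP_a_Rpl IP libraries held 24.3, 28.9, 24.01 and 28.6 CPM in ND, 9.08, 6.996, 7.41 and 7.08 CPM in NZ, 31.4, 29.8 and 29.8 CPM in RD and 9.57, 9.68, 10.3 and 8.94 CPM in RZ. It kept more of its level than most others, 28.9% in NCAR and 31.7% in R6/2 mice. In the n_ZFP_n_Rpl IP the values were 27.1, 24.8, 27.5 and 30.1 CPM (ND), 9.39, 11.6, 10.3 and 8.44 CPM (NZ), 37.4, 35.99, 42.5 and 38.7 CPM (RD) and 14.8, 12.5, 16.03 and 11.6 CPM (RZ). The 36.3% and 35.5% left there were the highest shares of the 10 genes in that IP.

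The second group acts in signalling and ion transport. Gab3 encodes an adaptor of the GRB2-associated binding family, which passes on signals from cytokine and growth factor receptors, and lies on chrX:74988545-75084905. Few reads fell on it, and its n_ZFP_a_Rpl IP levels were 1.43, 1.13, 1.03 and 1.42 CPM in ND, 0.246, 0.199, 0.243 and 0.154 CPM in NZ, 1.08, 1.19 and 1.07 CPM in RD and 0.0589, 0.0821, 0.106 and 0.120 CPM in RZ. These rest on 46 to 69 reads per library in ND, 7 to 11 in NZ, 51 to 57 in RD and 3 to 6 in RZ. The fitted differences were -2.56 ± 0.22 and -3.57 ± 0.25, and so few reads limit their precision. In the n_ZFP_n_Rpl IP the levels were 1.73, 1.28, 1.18 and 1.58 CPM in ND, 0.496, 0.668, 0.322 and 0.319 CPM in NZ, 2.03, 1.76, 1.95 and 1.58 CPM in RD and 0.476, 0.295, 0.297 and 0.327 CPM in RZ. The groups with and without ZFP did not overlap there either, with 11 to 25 reads in NZ and 12 to 21 in RZ.

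Atp2b3 encodes PMCA3, a plasma membrane pump that moves calcium out of the cell, and lies on chrX:73502749-73573275. In the n_ZFP_a_Rpl IP the ND libraries held 220.0, 221, 225 and 217 CPM and the NZ libraries 25.4, 37.8, 17.9 and 17.5 CPM. RD stood at 188, 201 and 182 CPM and RZ at 24.9, 10.3, 15.2 and 17.5 CPM. The ND libraries lay close together while the ZFP libraries were more spread in proportion, and the differences were -3.16 ± 0.26 and -3.49 ± 0.28. In the n_ZFP_n_Rpl IP the levels were 221, 224, 194 and 195 CPM in ND, 77.3, 90.3, 80.7 and 43.3 CPM in NZ, 209, 218, 214 and 217 CPM in RD and 50.6, 62.2, 55.6 and 61.3 CPM in RZ. NZ replicate 4 was the lowest of all 8 ZFP libraries of that IP. The differences were -1.52 ± 0.16 and -1.90 ± 0.16.

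The third group works in metabolism, protein folding and the cytoskeleton. Impdh1, one of the enzymes of the rate-limiting step of guanine nucleotide synthesis, lies on chr6:29200436-29216364. The n_ZFP_a_Rpl IP held 49.4, 49.4, 45.7 and 48.1 CPM in ND, 6.96, 8.36, 6.79 and 7.06 CPM in NZ, 34.02, 31.03 and 33.9 CPM in RD and 5.81, 7.02, 5.92 and 6.002 CPM in RZ. The n_ZFP_n_Rpl IP held 63.5, 62.8, 62.5 and 62.6 CPM in ND, 18.04, 18.7, 16.8 and 13.4 CPM in NZ, 47.6, 45.6, 48.5 and 41.9 CPM in RD and 15.1, 12.4, 14.7 and 12.5 CPM in RZ. In both IPs the order was ND, RD, NZ, RZ, with overlap only between NZ and RZ. The differences were -2.72 ± 0.07 and -2.41 ± 0.08 in the n_ZFP_a_Rpl IP and -1.91 ± 0.09 and -1.74 ± 0.09 in the n_ZFP_n_Rpl IP.

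Dnajc12 encodes a J-domain co-chaperone that serves the aromatic amino acid hydroxylases and lies on chr10:63382443-63408840. Its n_ZFP_a_Rpl IP levels were 10.3, 10.9, 11.4 and 12.6 CPM in ND, 2.10, 2.03, 2.83 and 1.72 CPM in NZ, 15.1, 17.4 and 14.7 CPM in RD and 2.22, 2.46, 2.89 and 3.08 CPM in RZ. The n_ZFP_n_Rpl IP levels were 12.003, 11.2, 11.5 and 11.6 CPM in ND, 3.54, 2.78, 2.96 and 2.76 CPM in NZ, 17.6, 17.4, 20.4 and 16.9 CPM in RD and 4.14, 3.31, 3.72 and 4.05 CPM in RZ. R6/2 mice had the higher mean with and without ZFP in both IPs. The differences between ZFP and Delta were -2.38 ± 0.14 and -2.56 ± 0.14 in the first and -1.94 ± 0.10 and -2.25 ± 0.10 in the second.

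Mzt2, a small partner of the gamma-tubulin ring complex that nucleates microtubules, lies on chr16:15848441-15863369. The n_ZFP_a_Rpl IP held 11.8, 14.2, 12.5 and 12.9 CPM in ND, 4.70, 4.26, 4.56 and 4.31 CPM in NZ, 14.3, 14.97 and 16.5 CPM in RD and 3.71, 4.33, 4.63 and 4.38 CPM in RZ. The n_ZFP_n_Rpl IP held 12.9, 11.1, 12.9 and 12.8 CPM in ND, 3.62, 3.29, 3.66 and 3.38 CPM in NZ, 17.5, 16.4, 16.9 and 17.1 CPM in RD and 3.03, 3.39, 3.31 and 3.48 CPM in RZ. Mzt2 was higher in RD than in ND and nearly the same in NZ and RZ. It kept the largest share of the 10 in NZ of the n_ZFP_a_Rpl IP, 34.7%, against 28.1% in the n_ZFP_n_Rpl IP.

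Set side by side, 8 of the 10 genes kept a smaller share of the Delta level in the n_ZFP_a_Rpl IP than in the n_ZFP_n_Rpl IP in NCAR mice (all but Brdt and Mzt2), and 7 of 10 did in R6/2 mice (all but Brdt, Dach1 and Mzt2). In RZ against RD less NZ against ND, the medians over the 10 genes were -0.03 in the n_ZFP_a_Rpl IP and -0.31 in the n_ZFP_n_Rpl IP. The lowest values belonged to Gab3, at -1.01 ± 0.35 and -0.71 ± 0.34, and Mzt2 stood at -0.31 ± 0.12 and -0.53 ± 0.10. Tceal6, at 0.39 ± 0.20 and -0.32 ± 0.12, had opposite signs in the IPs.

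Markers of the cell types moved with the ZFP in R6/2 mice of the same sets. In the n_ZFP_a_Rpl IP 9 of 10 astrocyte markers were lower in RZ than in RD, with summed levels of 12926 to 13939 CPM against 15818 to 17189 CPM. There 9 of 9 tested projection neuron markers were higher, with summed levels of 5778 to 6553 CPM against 1941 to 2641 CPM. Of the projection neuron markers in the n_ZFP_n_Rpl IP, 7 of 9 were higher in RZ, at 4133 to 6846 CPM against 2556 to 3437 CPM. In NZ against ND of the n_ZFP_a_Rpl IP, with a median of 16.8% of the ND level left over the 10 genes, the astrocyte list summed to 18753 to 24867 CPM against 20308 to 24689 CPM and the neuron list to 5186 to 5605 CPM against 5198 to 5446 CPM. In NZ against ND of the n_ZFP_n_Rpl IP 3 of 10 astrocyte markers were higher, at 4276 to 5649 CPM against 3273 to 4334 CPM. The projection neuron list there had a median log2 difference of -0.43, with 0 of 9 past edgeR's threshold and sums of 6204 to 8667 CPM in NZ against 8275 to 12665 CPM in ND. In the n_ZFP_n_Rpl Input it summed to 4589 to 5852 CPM in NZ against 6110.0 to 10394 CPM in ND, with no overlap, and to 2489 to 3857 CPM in RZ against 1709 to 1894 CPM in RD. In the n_ZFP_a_Rpl Input it summed to 5337 to 5964 CPM in RZ against 2742 to 3280.2 CPM in RD, and the astrocyte list to 6893 to 7393 CPM in NZ against 7638 to 7901 CPM in ND. No marker was at 0 in all libraries of a group, and the part of these shifts in the falls of the 10 genes was not tested.

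The Inputs of the same sets showed the falls in smaller size. IP and Input libraries of 1 condition and number deviated together from their group means in both n_ZFP sets, so the Inputs are not independent of the choice and are described with no test. In the n_ZFP_a_Rpl Input 32.7% to 47.2% of the ND level was left in NZ (median 40.9%) and 32.6% to 52.7% of the RD level in RZ (median 40.2%). In the n_ZFP_n_Rpl Input the shares were 30.4% to 68.7% (median 58.5%) and 46.0% to 64.8% (median 57.5%). For 10 of 10 genes and in both genotypes the share left was smaller in the IP than in the Input of the same set. The genes were chosen for their falls in these IPs, so the choice favoured this order. All 10 had groups without overlap in each Input contrast, where 3.09%, 11.8%, 5.12% and 5.61% of tested genes were lower without overlap.

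Tceal6 in the n_ZFP_a_Rpl Input stood at 51.1, 53.2, 45.8 and 46.3 CPM in ND and 20.8, 17.4, 12.6 and 13.4 CPM in NZ, 32.7% of the level against 3.24% in the IP. Dach1 was the gene with the deepest fall in the n_ZFP_n_Rpl Input of NCAR mice, from 92.5, 96.8, 155 and 137 CPM in ND to 44.8, 33.6, 38.1 and 30.1 CPM in NZ. Its ND libraries there fell into a lower and a higher pair, and all of them stood above the NZ libraries. Atp2b3 in the n_ZFP_a_Rpl Input came from 179, 178, 179 and 179.9 CPM in ND to 88.5, 82.8, 45.3 and 52.1 CPM in NZ, with the spread again in the ZFP libraries. Eid2b and Mzt2 kept the most in the n_ZFP_n_Rpl Input of NCAR mice, 68.7% and 65.6%.

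**Figure D2:**
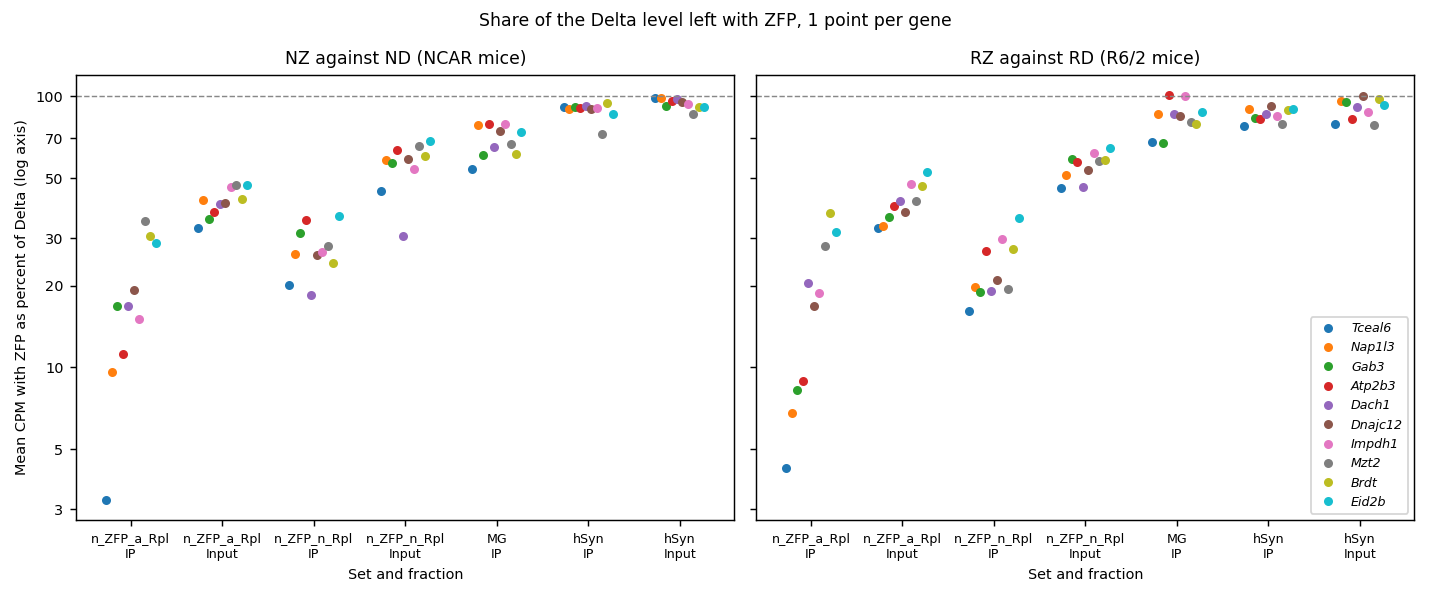
Mean CPM with ZFP as a percent of the mean with Delta (log axis) for each of the 10 genes, by set and fraction, in NCAR mice (left) and R6/2 mice (right), with a dashed line at 100%. The median share left in NCAR mice was 16.8% in the n_ZFP_a_Rpl IP, 26.4% in the n_ZFP_n_Rpl IP, 40.9% and 58.5% in their Inputs, 70.5% in the MG IP, 90.6% in the hSyn IP and 94.6% in the hSyn Input.

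The MG IP, another astrocyte pulldown, took no part in the choice of the genes. In NZ against ND 9 of the 10 were lower, and the background share of genes lower in this comparison was 3.36%. All 10 had groups without overlap, against 9.10% of tested genes that were lower without overlap. The shares left, 54.1% to 79.3% (median 70.5%), were larger than in either n_ZFP IP, an order that the choice favoured. The median log2 difference was -0.51 against 0.02 over all genes.

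Tceal6 stood at 84.6, 79.3, 79.7 and 78.1 CPM in ND and 39.9, 39.99, 50.6 and 43.5 CPM in NZ of the MG IP, a difference of -0.89 ± 0.13 (edgeR adjusted p = 0.00653). Brdt stood at 8.91, 8.90, 8.42 and 8.61 CPM and 5.55, 5.37, 5.13 and 5.25 CPM, a difference of -0.71 ± 0.09 (edgeR adjusted p = 0.00183). Both groups of each gene were narrow beside the gap between them. Dach1 came from 153, 156, 156 and 142 CPM to 74.003, 92.7, 128 and 100.4 CPM, a difference of -0.62 ± 0.14 (edgeR adjusted p = 0.0266), with a wider spread in NZ. Mzt2 came from 8.74, 9.61, 8.69 and 8.74 CPM to 4.99, 5.70, 6.44 and 6.76 CPM, a difference of -0.58 ± 0.13 (edgeR adjusted p = 0.0252). Of the others, Gab3 (-0.72), Dnajc12 (-0.43), Eid2b (-0.43), Nap1l3 (-0.35) and Atp2b3 (-0.34) passed with edgeR adjusted p between 0.0252 and 0.0412. Impdh1 did not, at -0.33 ± 0.11 (edgeR adjusted p = 0.0721).

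The count of 9 in NZ against ND, and the 1081 genes called in this comparison, changed with the library left out. Without ND replicate 1, ND replicate 2, NZ replicate 3 or NZ replicate 5 of the MG IP, 2 of the 10 genes passed, and 26, 19, 32 and 50 genes in all. Without ND replicate 3 it was 3 of 10 and 127 genes, and without ND replicate 4 it was 7 of 10 and 407 genes. Without NZ replicate 2 or NZ replicate 4 it was 9 of 10, with 2057 and 1169 genes. Tceal6 and Brdt passed each time, and Impdh1 passed without NZ replicate 4. DESeq2 called 10 of the 10 and 2251 genes. An edgeR fit with the replicate number as a block called 0 of the 10, Tceal6 and Brdt included, and 3 genes in all.

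Some cell type markers and relatives of the 10 genes were also lower in the MG IP. In NZ against ND 5 of 9 projection neuron markers and 2 of 8 neuron markers were lower, with summed levels of 4417 to 7515 CPM against 7976 to 8600 CPM and of 4824 to 5285 CPM against 5632 to 6289 CPM. The other 5 Tceal genes had a median log2 difference of -0.39 in NZ against ND, where 1 passed, and -0.42 in RZ against RD, where 0 passed with edgeR. Over all 50 tested relatives by name, listed further below, the medians were smaller, at -0.15 and -0.17. Of these 50, 3 were lower in NZ against ND, where 3.36% of all genes were, and 0 in RZ against RD. The astrocyte markers summed to 19849 to 38866 CPM in NZ and 23244 to 29169 CPM in ND. The share of reads on the ribosomal RNA gene Rn45s also differed without overlap, at 0.0306% to 0.0881% in NZ and 0.105% to 0.314% in ND. NZ replicate 2 stood apart, with a correlation of 0.982 with the rest of its group against 0.992 to 0.995 for the other 7 libraries, and without it 9 of the 10 genes passed. The part of these shifts in the fall of the 10 genes was not tested.

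In R6/2 mice of the MG IP 0 of the 10 genes passed edgeR's test between RZ and RD, against 0.0782% of all genes. At an unadjusted p under 0.05 there were 6, all lower, against 2760 of 15342 genes in either direction. DESeq2 called 2 (Tceal6 and Brdt), against 391 genes. The genes kept 67.1% to 101% of their RD level (median 85.2%), and 3 of 10 had RZ libraries all below RD, against 2.74% of tested genes. Tceal6 stood at 58.5, 71.6, 59.8 and 76.4 CPM in RD and 58.8, 43.8, 43.7 and 34.8 CPM in RZ, where RZ replicate 1 was level with the lowest RD library. Its difference was -0.56 ± 0.13, with a 95% interval of -0.83 to -0.28 and an edgeR adjusted p of 0.132. Without RZ replicate 1, Tceal6, Nap1l3 and Brdt passed, 3 of 10, and the count of all genes rose from 12 to 2043. Atp2b3 and Impdh1 differed least from RD, at 0.02 ± 0.08 and 0.00 ± 0.11. For 10 of 10 genes the share left was smaller in NCAR than in R6/2 mice. The test of that difference (interaction) called 0 of the 10 and 0% of all genes with edgeR, and 0 of the 10 with DESeq2. At an unadjusted p under 0.05 there were 3 of the 10, against 1143 of 15342 genes.

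The hSyn set, the other neuron pulldown, also took no part in the choice. In RZ against RD of its IP, Tceal6 alone of the 10 passed the test, in a comparison where 0.0326% of genes were lower. Its levels were 98.6, 106 and 97.2 CPM in RD and 79.98, 78.7, 71.4 and 82.6 CPM in RZ, a difference of -0.36 ± 0.06 (edgeR adjusted p = 0.0496). The groups did not overlap. Left out in turn, each of the 7 libraries of the contrast ended the call, at edgeR adjusted p of 0.0566 (without RZ replicate 4) to 0.417 (without RD replicate 2). All 10 differences were below 0, with shares left of 77.7% to 92.0% (median 85.7%), and 7 of 10 genes had groups without overlap, against 4.91% of tested genes. In the same contrast 0 of 8 neuron and 0 of 10 astrocyte markers passed edgeR's test. The neuron list summed to 5426 to 5988 CPM in RZ against 6231 to 6459 CPM in RD, and the astrocyte list to 3672 to 4418 CPM against 2899 to 3512 CPM (median log2 differences -0.13 and 0.35), with no overlap in either list. Their part in the lower values of the 10 genes was not tested.

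In NZ against ND of the hSyn IP 0 of the 10 passed edgeR's test, where 0.0261% of all genes did. At an unadjusted p under 0.05 there were 6, all lower, against 580 of 15347 genes in either direction. DESeq2 called 1 (Mzt2), against 10 genes. Mzt2 stood at 9.38, 9.19, 8.20, 7.05 and 8.27 CPM in ND and 5.43, 6.71, 6.16 and 6.07 CPM in NZ, a difference of -0.47 ± 0.09 (edgeR adjusted p = 0.227). The shares left were 72.4% to 94.9% (median 90.6%), and 3 of 10 genes had groups without overlap, against 0.437% of tested genes. Tceal6 had a difference of -0.13 ± 0.06, with a 95% interval of -0.25 to -0.02. The interaction in the hSyn IP called 0 of the 10 and 0% of all genes with edgeR, and 0 of the 10 with DESeq2. At an unadjusted p under 0.05 there was 1 of the 10, against 646 of 15347 genes.

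In the hSyn Input 0 of the 10 passed edgeR's test in RZ against RD (0% of all genes) or in NZ against ND (0.00622%). At an unadjusted p under 0.05 there were 4 and 2, all lower, against 628 and 525 of 16090 genes in either direction. DESeq2 called 0 of the 10 in either. Groups without overlap and lower were seen for 5 of 10 genes in RZ against RD (4.18% of tested genes) and 0 of 10 in NZ against ND (0.510%). Mzt2 in RZ against RD, -0.36 ± 0.09, and Tceal6, -0.33 ± 0.10, had the largest differences.

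**Figure D3:**
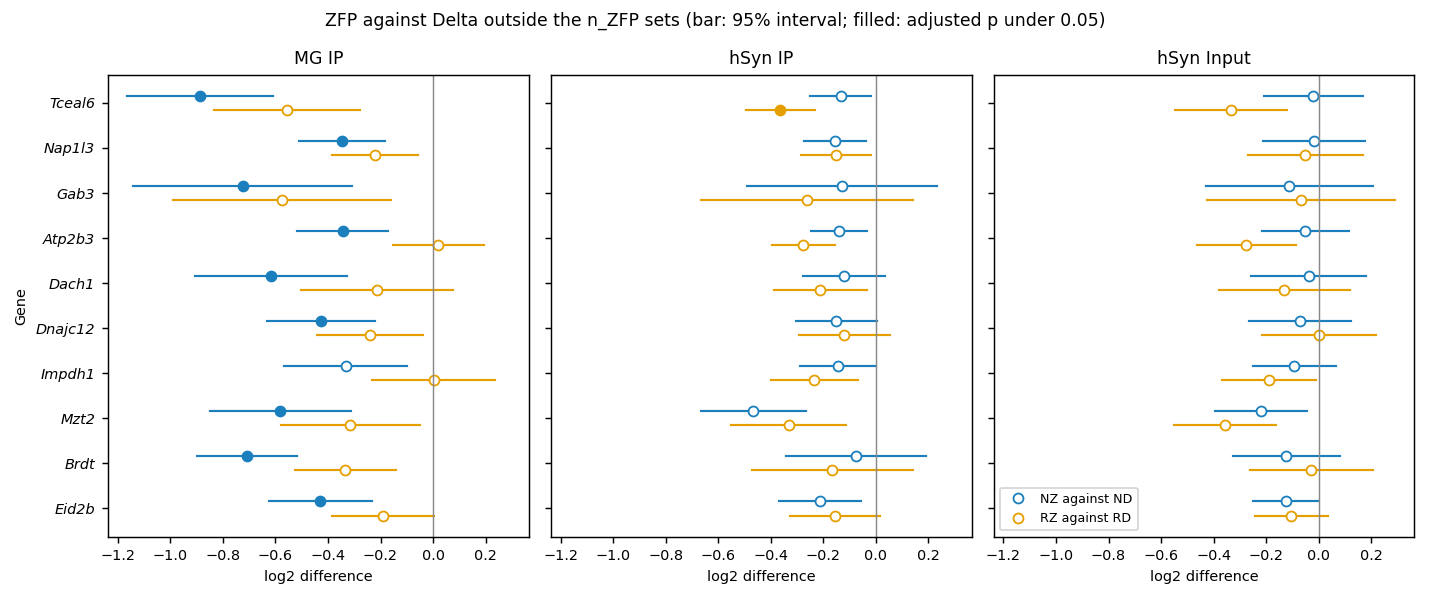
Log2 difference between ZFP and Delta for each of the 10 genes in the MG IP, the hSyn IP and the hSyn Input, in NCAR mice (blue) and R6/2 mice (orange), with 95% intervals that are not adjusted for the number of genes and filled points where the adjusted p was under 0.05. In the MG IP 9 of 10 genes are filled in NCAR mice and none in R6/2 mice, and outside it only Tceal6 in R6/2 mice of the hSyn IP is filled.

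The difference between genotypes under Delta (RD against ND) addresses how the same genes stood in the disease model without the repressor. These contrasts share their ND and RD libraries with the ZFP contrasts above. The 10 genes fell into several patterns. Dnajc12 was higher in RD in all 7 sets and fractions, Mzt2 in 6 of 7, and Nap1l3 and Eid2b in 5 of 7. Impdh1 and Brdt were lower in RD in 7 of 7 and Dach1 in 4 of 7. Tceal6 was lower in 2, Atp2b3 higher in 1, and Gab3 passed in none.

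Counted by set, 6 of 10 passed in the MG IP (3 lower and 3 higher), 7 in the hSyn IP (2 and 5), 6 in the n_ZFP_a_Rpl IP (4 and 2) and 7 in the n_ZFP_n_Rpl IP (3 and 4). Among the Inputs, that of hSyn had 6 (2 and 4), that of n_ZFP_a_Rpl 5 (3 and 2) and that of n_ZFP_n_Rpl 7 (3 and 4). The share of all genes past the threshold was 33.5%, 51.0%, 45.3% and 51.4% in the 4 IPs and 44.1%, 49.1% and 49.8% in the 3 Inputs. A count of 5 to 7 of 10 is thus not far above that background.

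Dnajc12 in the hSyn IP stood at 12.4, 10.3, 10.4, 10.5 and 10.8 CPM in ND and 17.1, 15.6 and 15.4 CPM in RD, with no overlap and a difference of 0.56 ± 0.08 (edgeR adjusted p = 1.70e-05). Its differences over the 7 fits lay between 0.48 and 0.67. Eid2b in the same IP came from 23.9, 26.1, 26.3, 21.9 and 28.2 CPM in ND to 40.6, 37.3 and 39.2 CPM in RD, a difference of 0.63 ± 0.08 (edgeR adjusted p = 4.45e-06). It was 0.32 ± 0.09 in the MG IP and did not pass in the n_ZFP_a_Rpl IP (0.20 ± 0.09) or Input (0.30 ± 0.12). Nap1l3 ranged from 0.28 to 0.55 over the fits and Mzt2 from 0.25 to 0.54.

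Brdt in the n_ZFP_n_Rpl IP had the largest fall, -0.75 ± 0.10 (edgeR adjusted p = 1.41e-05), and in the MG IP it stood at 8.91, 8.90, 8.42 and 8.61 CPM in ND and 5.61, 6.22, 5.49 and 4.84 CPM in RD, -0.65 ± 0.09 (edgeR adjusted p = 5.00e-05). Its differences in the n_ZFP Inputs were smaller, -0.39 ± 0.13 and -0.31 ± 0.10. Impdh1 lay between -0.63 in the MG IP and -0.26 in the hSyn Input. Dach1 was lower in the MG IP (-0.64 ± 0.14), the n_ZFP_a_Rpl IP (-0.43 ± 0.09) and both n_ZFP Inputs, and was -0.19 ± 0.08 in the hSyn IP and -0.32 ± 0.18 in the n_ZFP_n_Rpl IP, where it did not pass. Of the X-linked genes, Tceal6 was lower in the n_ZFP_a_Rpl IP (-0.38 ± 0.11, edgeR adjusted p = 0.0135) and the n_ZFP_n_Rpl IP (-0.21 ± 0.08, edgeR adjusted p = 0.0387). Atp2b3 was higher in the hSyn IP, 0.21 ± 0.05 (edgeR adjusted p = 0.00431).

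Brdt and Impdh1 thus fell with the R6/2 genotype in 7 of 7 fits and Dach1 in 4 of 7. Dnajc12 rose with the genotype in 7 of 7 fits, Mzt2 in 6, and Nap1l3 and Eid2b in 5. All of these genes were lower with ZFP in the n_ZFP IPs that chose them. In RZ against RD of the MG IP none of them passed. Some calls of RD against ND were lost when 1 library was left out. In the MG IP Eid2b was lost without ND replicate 4, RD replicate 2 or RD replicate 4. In the n_ZFP_a_Rpl IP Tceal6 was lost without RD replicate 3 and Mzt2 without ND replicate 1, ND replicate 3 or RD replicate 3, and in the n_ZFP_n_Rpl IP Tceal6 was lost without ND replicate 3 or 4 or RD replicate 1, 2 or 3. In the hSyn Input Impdh1 was lost without RD replicate 1 or 2. In the n_ZFP_a_Rpl Input Brdt was lost without RD replicate 2 or 3 and Dach1 without RD replicate 2, which left 3 of 10, and a fit of these groups alone called 8 of 10. In the n_ZFP_n_Rpl Input Nap1l3 was lost without ND replicate 3 or 4, Impdh1 without ND replicate 3 and Brdt without RD replicate 1. Calls gained were Dach1 in the hSyn IP without ND replicate 0, Atp2b3 in the hSyn Input without RD replicate 3 and Eid2b in the n_ZFP_a_Rpl IP without ND replicate 2.

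**Figure D4:**
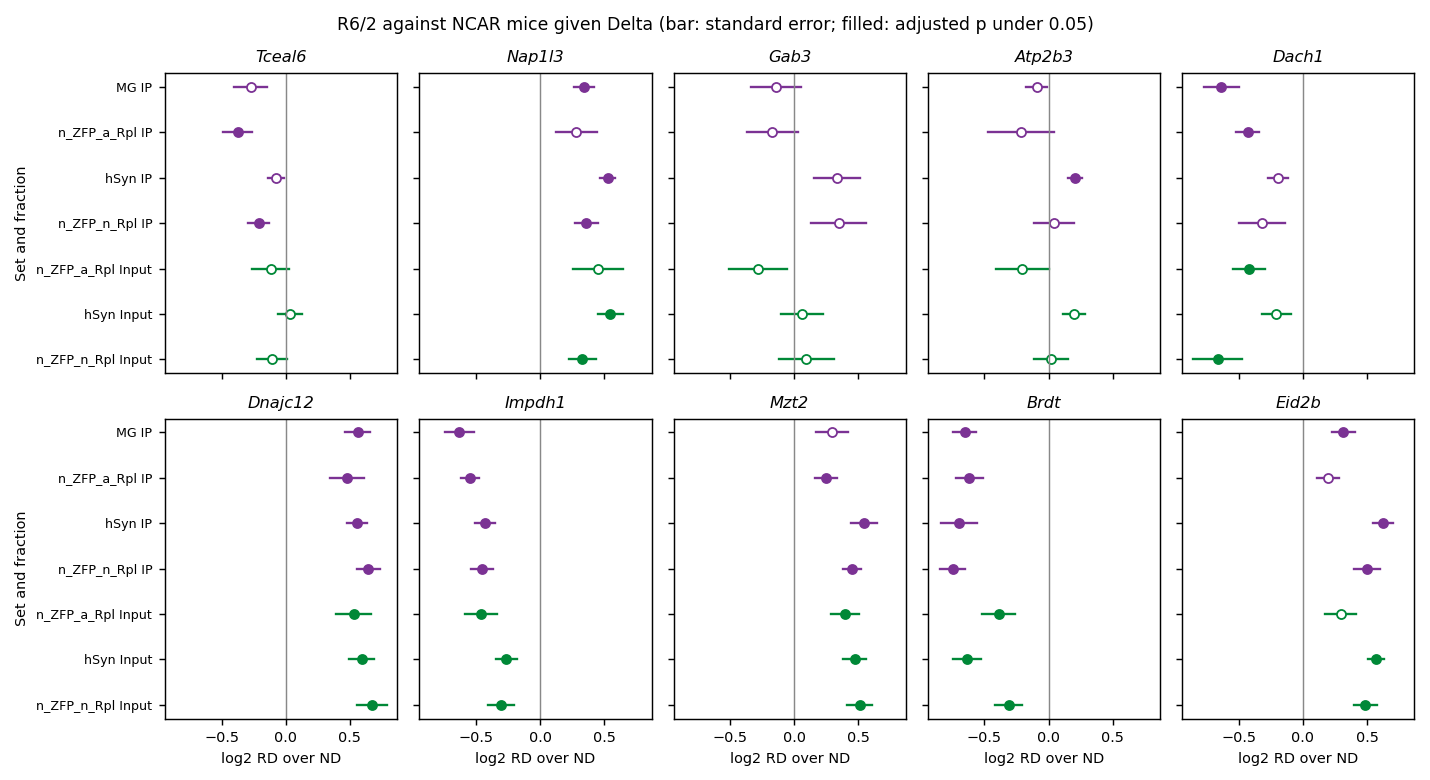
Log2 difference between RD and ND for each of the 10 genes in 4 IPs (purple) and 3 Inputs (green), with bars of 1 standard error and filled points where the adjusted p was under 0.05. Dnajc12 lies to the right of 0 and Impdh1 and Brdt to the left in all 7 rows, while Gab3 has no filled point.

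Enrichment in the pulldown was compared in ND, where no ZFP was present. In the hSyn set 8 of 10 genes were higher in IP than in Input, and in the n_ZFP_n_Rpl set 8 were higher and 1 lower (Gab3). Of all genes, 64.9% and 70.7% passed in these comparisons. The share higher in IP was 31.6% and 38.1%, and the share lower was 33.3% and 32.6%. Tceal6 was 0.48 ± 0.07 in the hSyn set and 0.85 ± 0.11 in the n_ZFP_n_Rpl set (edgeR adjusted p = 1.04e-06 and 5.21e-08), and Atp2b3 was 0.62 ± 0.06 and 0.55 ± 0.15. Brdt did not pass in either, at -0.05 ± 0.11 and 0.02 ± 0.10. In the hSyn set Mzt2 was lost without IP replicate 0 or 1 or Input replicate 3, and Gab3 passed as lower without IP replicate 0 or Input replicate 5. In the n_ZFP_n_Rpl set Dach1 was lost without IP replicate 3 or 4 or Input replicate 1 or 2, and Gab3 without IP replicate 3 or Input replicate 2.

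In the n_ZFP_a_Rpl set 3 genes were higher in the astrocyte IP (Nap1l3, Dnajc12 and Mzt2) and 2 lower (Gab3 and Brdt). Of all genes, 72.2% passed, 35.5% higher and 36.7% lower. The fits of all these sets, that of n_ZFP_n_Rpl included, did not pair IP with Input, though the numbers pair them in both n_ZFP sets. A paired count for the n_ZFP_n_Rpl set is not given here. With IP and Input of 1 number paired in the n_ZFP_a_Rpl set, 9 of 10 passed, 7 higher and 2 lower. The share of all genes past the threshold in the paired fit is not given here, so that count has no background beside it. Nap1l3 was 0.74 ± 0.17 and Mzt2 0.50 ± 0.09. Gab3 was -1.16 ± 0.20 (edgeR adjusted p = 9.75e-06), from 3.77, 2.98, 3.02 and 2.95 CPM in Input to 1.43, 1.13, 1.03 and 1.42 CPM in IP. The 7 microglia markers were all lower in this IP too, with a median of -6.15. So were 6 of 6 oligodendrocyte markers (median -1.22) and 3 of 3 oligodendrocyte precursor markers (-2.44). Of 5 endothelial and mural markers 4 were lower and 1 higher (-4.40). Which cells held the Gab3 RNA was not tested.

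Neuron and astrocyte IPs of ND mice were compared across sets, where cell type and set cannot be told apart. Between the hSyn IP and the MG IP 7 of 10 genes were higher in the hSyn IP and 1 lower (Nap1l3, -0.25 ± 0.07). Of all genes, 60.0% passed, 31.0% higher and 29.1% lower, and of 8 general neuron markers 3 were higher and 3 lower. Eid2b was lost in this comparison without MG replicate 3 or 4 or hSyn replicate 1, 2 or 4. Between the n_ZFP_n_Rpl IP and the n_ZFP_a_Rpl IP 3 of 10 were higher in the neuron IP and none lower. Of all genes, 63.2% passed, 33.2% higher and 29.9% lower. The 3 genes were Tceal6 (0.52 ± 0.10), Impdh1 (0.36 ± 0.08) and Brdt (0.67 ± 0.09). The other 7 genes were thus at levels in the astrocyte IP that the test did not separate from those in the neuron IP.

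Relatives of the 10 genes were counted in the same contrasts. Of 50 tested relatives by name (Tceal, Bex, Nap1l, Gab, Atp2b, Dach, Dnajc, Impdh, Mzt, BET and Eid genes), 1 was lower in NZ against ND and 5 in RZ against RD of the n_ZFP_a_Rpl IP, and 2 and 7 in the n_ZFP_n_Rpl IP. Of all tested genes 0.872%, 14.7%, 4.50% and 7.95% were lower in these contrasts. Their median log2 differences were -0.01, 0.01, 0.00 and -0.04, and none was lower in all 4 contrasts. Closest relatives by name are given for NZ against ND of the n_ZFP_a_Rpl IP. There Tceal5 was -0.23 ± 0.07, Impdh2 0.08 ± 0.08, Mzt1 0.11 ± 0.20, Eid2 -0.13 ± 0.05 and Nap1l2 -0.27 ± 0.06, of which Nap1l2 passed. Atp2b2, another calcium pump gene, was higher in RZ against RD in both IPs, at 0.78 ± 0.06 and 0.39 ± 0.06, where Atp2b3 was lower, and lower in NZ against ND of the n_ZFP_n_Rpl IP, at -0.21 ± 0.06. Dach2 was higher, at 0.90 ± 0.25 (edgeR adjusted p = 0.0397), in NZ against ND of the n_ZFP_n_Rpl IP, where Dach1 was -2.43 ± 0.19. The ND mean of Dach2 there was only 0.58 CPM. Dach2 did not pass in RZ against RD of that IP (-0.37 ± 0.22). Nor did it pass in the n_ZFP_a_Rpl IP, at 0.03 ± 0.16 in NZ against ND and -0.20 ± 0.17 in RZ against RD.

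The next annotated gene on either side was in the table for 5 of the 20 sides, and 4 of these were tested. Sirt1, 43407 bases from Dnajc12, was 0.16 ± 0.06 in NZ against ND of the n_ZFP_a_Rpl IP, and Eid2, 8537 bases from Eid2b, was -0.13 ± 0.05. Eid2 was below 0 in all 4 contrasts and passed as lower in RZ against RD of the n_ZFP_n_Rpl IP, at -0.23 ± 0.05 (edgeR adjusted p = 0.00909). Sirt1 was lower in RZ against RD in both IPs, at -0.29 ± 0.06 and -0.20 ± 0.06. None of the 4 passed as lower in all 4 contrasts. Gab3 and Dach1 each overlap an annotated snRNA gene, and Mzt2 lies 67 bases from a long non-coding RNA gene.

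Over all 110 libraries and all conditions, each gene's profile was compared with the mean profile of the 10 genes, centred within set and fraction. Of 12648 genes with a mean of at least 1 CPM in every set and fraction, the non-members most like it were Fkbp3 (Pearson r = 0.957), Acsl1 (0.952), Lysmd2 (0.950), Rplp1 (0.932) and Noa1 (0.929). The members themselves lay between 0.849 (Brdt) and 0.976 (Tceal6), with Gab3 below the minimum level. Each member is part of the mean profile, and the libraries include those that chose the genes, so high values were built in for the members. The 5 non-members are also among the 39 genes lower in all 4 contrasts of the choice. The libraries share sets and conditions, so these values describe the pattern and are given with no p.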

How the data were processed

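RNA of 110 libraries in 4 sets was sequenced. The authors deposited raw read counts per gene, made with STAR and HTSeq on mm10 per the submitters' processing notes; the sources used here give neither versions nor the strand setting of the counting. The table had 24060 rows, of which 4 with repeated symbols were left out. Counts were tested with edgeR 4.0.16 (limma 3.58.1, R 4.3.3) by its quasi-likelihood test in 12 fits and 30 comparisons, with TMM factors, filterByExpr (minimum count 10, minimum total 15) and Benjamini-Hochberg adjustment at 0.05 over all genes tested. All conditions of a set and fraction entered 1 fit. CPM values were scaled by TMM within each set and fraction, and error values beside log2 differences are standard errors, with 95% intervals from the t distribution at the fit's degrees of freedom.

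The 10 genes and the gene lists were chosen with earlier results of these data known. The named genes are the 10 members, their relatives and neighbours by list, the genes next to them in rank and the 5 most like in pattern. The edgeR step was tested on simulated counts with known changes, of which it recovered most. IP and Input libraries of 1 number deviated together in the n_ZFP_a_Rpl set (r from 0.446 to 0.726 over 15 pairs) and the n_ZFP_n_Rpl set (0.558 to 0.822 over 16 pairs), so the numbers pair these fractions. In the hSyn set most same-numbered pairs deviated together too (median r 0.655, range -0.28 to 0.81, over 14 pairs), but not every pair did, so these were not treated as paired. Between conditions same-numbered libraries did not deviate together throughout, so the numbers were not treated as pairs. The highest median r of same-numbered libraries was 0.193, in the n_ZFP_n_Rpl IP (-0.44 to 0.47, 24 pairs). It was -0.0003 for different numbers there. Alternatives were DESeq2 1.42.0, RLE factors, no filter on low counts, fits of only the groups compared, a replicate block, and each library left out.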

Additional observations from a re-analysis of the deposited data

Results flagged for a closer look

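Of 240 groups of 4 or 5 libraries over the 10 genes, 11 (4.58%) held a library far from the others, and chance gives about 1 in 20. In CPM, these were Gab3 in n_ZFP_a_Rpl Input ND replicate 1 (3.77) and n_ZFP_n_Rpl Input NZ replicate 3 (0.997), Dach1 in n_ZFP_n_Rpl IP RZ replicate 1 (31.9), Dnajc12 in MG IP RD replicate 2 (15.4) and hSyn IP ND replicate 0 (12.4), and Impdh1 in n_ZFP_a_Rpl IP NZ replicate 2 (8.36) and RZ replicate 2 (7.02). The others were Mzt2 in MG IP ND replicate 2 (9.61) and n_ZFP_n_Rpl IP ND replicate 2 (11.1), and Eid2b in MG IP RZ replicate 1 (20.4) and n_ZFP_a_Rpl Input NZ replicate 1 (17.0).

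Atp2b3 differed between sets in RD against ND. All RD libraries lay above ND in the hSyn IP (log2 difference 0.21) and below ND in the n_ZFP_a_Rpl IP (-0.21) and Input (-0.20). The difference between the sets was not tested.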

How the results depend on the processing

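No direction of a called result reversed under the alternatives run. With DESeq2 the count of genes called in NZ against ND rose from 1081 to 2251 in the MG IP, 4 to 10 in the hSyn IP (members 0 to 1), 1 to 5 in the hSyn Input, 316 to 875 in the n_ZFP_a_Rpl IP, 151 to 336 in its Input, 1113 to 1751 in the n_ZFP_n_Rpl IP and 479 to 1101 in its Input. In RZ against RD DESeq2 moved it from 12 to 391 in the MG IP (members 0 to 2), 6 to 22 in the hSyn IP (members 1 to 2), 0 to 5 in the hSyn Input and 525 to 901 in the n_ZFP_n_Rpl Input, and the interactions from 0 to 52 (MG) and 0 to 7 (hSyn). Without a filter on low counts the MG interaction called 1 gene. With RLE factors the hSyn IP called 0 members in RZ against RD, and the share of lower genes in NZ against ND of the MG IP moved from 47.7% to 57.1%. Fits of only the groups compared called 2 genes (hSyn IP), 146 and 95 (n_ZFP_a_Rpl IP and Input) and 241 and 37 (n_ZFP_n_Rpl IP and Input) in NZ against ND, and 1 (MG IP), 10 (hSyn IP, 0 members) and 1 (hSyn Input) in RZ against RD. In RD against ND of the n_ZFP_a_Rpl Input they called 8 members in place of 5. The interactions have no such fit.

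With the replicate number as a block, NZ against ND called 3 genes and 0 members in the MG IP and 287 genes in the n_ZFP_n_Rpl Input. RZ against RD called 6 genes in the MG IP and 1 gene and 0 members in the hSyn IP. Between conditions the shared numbers were not treated as pairs of libraries. Where the numbers pair IP and Input, 9 members passed in the n_ZFP_a_Rpl set, with no share over all genes of the paired fit given here.

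With each library left out in turn, the genes called ranged from 19 to 2057 in NZ against ND of the MG IP (members 2 to 9), 1 to 2 in the hSyn Input, 151 to 641 and 77 to 151 in the n_ZFP_a_Rpl IP and Input, and 524 to 1313 and 155 to 1270 in the n_ZFP_n_Rpl IP and Input. In RZ against RD they ranged from 5 to 2043 in the MG IP (members 0 to 3), 0 to 4 in the hSyn IP (members 0 to 0), 0 to 1 in the hSyn Input, 1677 to 2297 in the n_ZFP_a_Rpl Input and 216 to 516 in the n_ZFP_n_Rpl Input. The interactions ranged from 0 to 3 (MG) and 0 to 1 (hSyn), and the members in RD against ND of the n_ZFP_a_Rpl Input from 3 to 5. Groups of 3 to 5 libraries, and few reads on Gab3, limit what could be detected.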
